A study of Rattus norvegicus with 10 samples.

Results

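This account covers 6 genes of the Slc22 family that carry organic anions and urate in the kidney, *Slc22a6*, *Slc22a7*, *Slc22a8*, *Slc22a12*, *Slc22a13* and *Slc22a22*, out of 32545 genes in the table. They were taken by gene name in all 10 libraries, and the set was selected with their female to male difference in these same rats in view. The values that separate the sexes are therefore given for them as a description, and no test is read from them. Which of the 6 passed the thresholds set for all genes is only counted. The samples are snap-frozen renal cortices of PCK rats (PCK/CrljCrl-Pkhd1pck/Crl), 5 of them male and 5 female, with 1 RNA-seq library from each rat. All 10 animals carried the *Pkhd1* mutation of this strain, a model of autosomal recessive polycystic kidney disease, and no group without it was analysed here. The rats were littermates from 2 litters, and the litter of each rat was not used. The series text gives an age of 12 to 14 weeks and names the tissue as kidney, whereas the study's methods give a slightly younger age and name the renal cortex.

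Organic anion transporters move negatively charged metabolites, drugs and toxins across the epithelium of the proximal tubule. At the basolateral side, uptake from blood is driven by exchange against dicarboxylates such as alpha-ketoglutarate, whose gradient is kept up by sodium-coupled carriers and by the sodium pump. At the apical side, other members of the family return urate and other anions from the filtrate or let them leave into it.

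*Slc22a6* encodes OAT1 and *Slc22a8* encodes OAT3, the main basolateral uptake carriers. *Slc22a7* encodes OAT2, a carrier of organic anions and nucleotides. *Slc22a12* encodes URAT1, the apical urate carrier, and *Slc22a13* encodes OAT10, which carries urate and nicotinate. *Slc22a22* encodes a prostaglandin carrier of the same family.

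The windows around the start of transcription are shown for the 3 genes whose levels lay apart between the sexes, so that the regions can be set beside the levels. Each runs from 250 bases before to 50 bases from the RefSeq start on the build GRCr8, 5′ to 3′ on the strand of the gene, and capitals mark the motif matches described after them. The *Slc22a7* window is chr9:22045248-22045547 on the plus strand, the *Slc22a13* window is chr8:127811701-127812000 on the minus strand and the *Slc22a22* window is chr7:90639646-90639945 on the minus strand.
Slc22a7: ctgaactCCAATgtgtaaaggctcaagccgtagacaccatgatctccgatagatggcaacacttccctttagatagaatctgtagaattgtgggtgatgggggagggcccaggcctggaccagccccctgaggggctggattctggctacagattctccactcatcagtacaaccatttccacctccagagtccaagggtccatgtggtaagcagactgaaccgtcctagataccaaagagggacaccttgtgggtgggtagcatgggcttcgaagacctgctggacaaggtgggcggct
Slc22a13: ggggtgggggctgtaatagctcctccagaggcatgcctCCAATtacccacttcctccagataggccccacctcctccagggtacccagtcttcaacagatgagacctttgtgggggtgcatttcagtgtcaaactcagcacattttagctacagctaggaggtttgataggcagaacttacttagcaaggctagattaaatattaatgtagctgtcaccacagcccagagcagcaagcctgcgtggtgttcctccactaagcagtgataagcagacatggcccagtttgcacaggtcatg
Slc22a22: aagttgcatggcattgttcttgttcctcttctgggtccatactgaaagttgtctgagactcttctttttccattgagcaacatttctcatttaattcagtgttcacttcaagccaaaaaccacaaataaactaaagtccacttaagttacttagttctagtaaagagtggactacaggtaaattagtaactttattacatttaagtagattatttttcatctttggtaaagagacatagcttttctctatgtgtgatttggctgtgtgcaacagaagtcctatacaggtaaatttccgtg

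RefSeq gave such a window for 5 of the 6 genes, and none was matched for *Slc22a6*. Both strands were searched for 5 motifs, and a match describes letters only. The CCAAT box (CCAAT) was found in the windows of *Slc22a7* from −243, *Slc22a13* from −212 and *Slc22a12* from −26, and it occurs in 37.5% of the 33469 rat windows of this length. None of the motifs was found in the *Slc22a22* window. The TATA box (TATAAA), the HNF4 core (CAAAGTCCA), the STAT5 palindrome (TTCNNNGAA) and the palindrome of the estrogen receptor were found in none of the 5 windows. They occur in 14.2%, 0.391%, 8.87% and 0.0269% of all windows. Only these letters were searched, so near matches were not counted, such as TATATAAG in the *Slc22a8* window. The *Slc22a22* window was the poorest in G and C of the 5, at 34.7% against 47% to 58% in the others and a median of 51.7% over all windows.

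Levels are given in FPKM, fragments scaled to transcript length and library size, as deposited, so genes can be compared per length. Every value converted back to a whole number of reads, which gives the depth behind it. Males had 13912569 to 20285911 reads on genes and females had 14963924 to 19556707. The share of mitochondrial reads ran from 14.3% to 26.8%, and female 2 was the highest. Genes of the proximal tubule were abundant in every rat, among them *Slc34a1*, the sodium-phosphate carrier, at 1262 ± 292 FPKM in males against 1253 ± 364 FPKM in females (SD, n = 5). In bulk tissue, fewer cells of a type and less RNA per cell cannot be told apart.

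Summed over the 6 genes, the level was nearly the same in both sexes, at 766 ± 124 FPKM in males against 763 ± 179 FPKM in females (SD, n = 5). What differed was the mix. *Slc22a7* and *Slc22a13* were more than 10-fold higher in females, and *Slc22a22* was all but absent from females. *Slc22a6* had a lower and *Slc22a8* a higher mean in females, with overlapping ranges, and neither passed the thresholds given below. *Slc22a12* had similar means. In males the order of mean levels was *Slc22a6*, *Slc22a8*, *Slc22a12*, *Slc22a22*, *Slc22a7* and *Slc22a13*. In females it was *Slc22a8*, *Slc22a6*, *Slc22a12*, *Slc22a7*, *Slc22a13* and *Slc22a22*. The neighbours in this order whose ranges did not overlap were *Slc22a12* and *Slc22a22*, and *Slc22a22* and *Slc22a7*, in males. In females they were *Slc22a12* and *Slc22a7*, and *Slc22a13* and *Slc22a22*. The ranges of the first 3 carriers overlapped in males, as did those of *Slc22a8* and *Slc22a6* and of *Slc22a6* and *Slc22a12* in females.

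**Figure D1:**
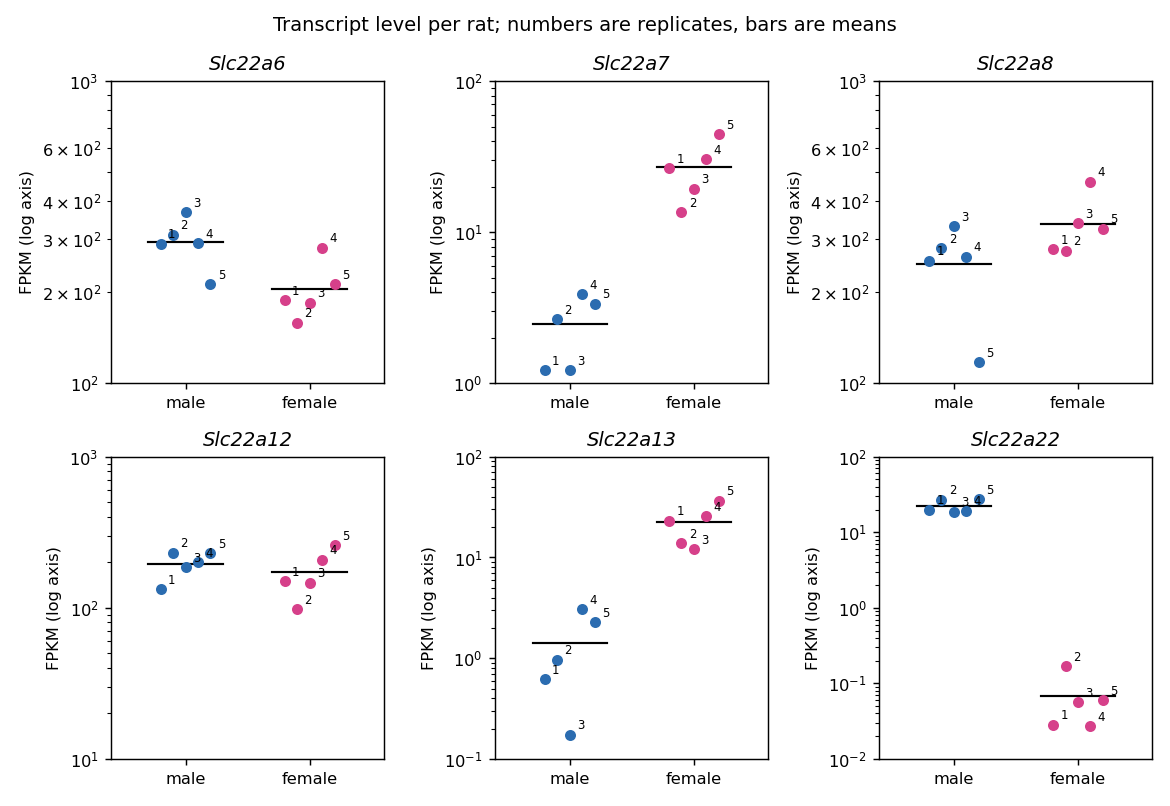
FPKM of each of the 6 transporters in every rat on a log axis, males in blue and females in pink, with the replicate number beside each point and the mean of 5 rats as a bar. The points of the sexes lie apart for Slc22a7, Slc22a13 and Slc22a22 and overlap for Slc22a6, Slc22a8 and Slc22a12.

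All 6 genes passed the filter of a mean of 0.1 FPKM over the 10 rats, *Slc22a22* only through the males. Among all 17631 genes tested with limma, 1.32% passed an adjusted p of 0.05 and a log2 fold change of 1 in either direction, and 3 of the 6 genes did. In single directions, 0.618% of all genes passed as higher in females, as did *Slc22a7* and *Slc22a13*, and 0.698% as lower in females, as did *Slc22a22*. The adjusted p alone was passed by 2.40% of all genes and by the same 3 of the 6. The ranges of the sexes did not overlap for 5.10% of all genes and again for these 3. Since the 6 were selected on this contrast, nothing is read from these counts. Each log2 fold change that follows is females over males, from limma on log2(FPKM + 0.1), with its standard error (SE).

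*Slc22a6* (ENSRNOG00000018215) lies on the plus strand at chr1:224824799-224833259 of the build Rnor_6.0, on which all positions of genes are given. It stood at 289, 310.3, 368, 290.3 and 213 FPKM in males 1 to 5 and at 188, 158, 184, 281 and 213 FPKM in females 1 to 5. Males 1 to 4 lay above every female, and male 5 lay within the range of the females, so the ranges overlapped. Means were 294 ± 55.5 FPKM and 205 ± 46.7 FPKM (SD, n = 5), a ratio of 0.697 and a log2 fold change of −0.53 (SE 0.17, 95% interval −0.91 to −0.14). Between 4992 and 13370 reads per rat were behind these values, and the gene ranked 236 among the tested genes in males and 361 in females.

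*Slc22a8* (ENSRNOG00000018086) lies 6316 bases from *Slc22a6* on the same strand, at chr1:224800252-224818482. Its levels were 254, 279.7, 331, 262 and 117 FPKM in males 1 to 5, and 278, 275, 339, 464 and 325 FPKM in females 1 to 5. Male 5 was by far the lowest rat, female 4 the highest, and the other males lay within or just below the range of the females. Means were 248.9 ± 79.3 FPKM in males against 336 ± 76.9 FPKM in females (SD, n = 5), a ratio of 1.35 and a log2 fold change of 0.49 (SE 0.26, 95% interval −0.08 to 1.06). Without male 5 the log2 fold change was 0.23.

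The means of the adjacent genes lay on opposite sides of equality, and their ratio within a rat separated the sexes. *Slc22a6* over *Slc22a8* was 1.14, 1.11, 1.11, 1.11 and 1.81 in males 1 to 5 and 0.677, 0.577, 0.544, 0.606 and 0.654 in females 1 to 5. OAT1 transcripts were the more abundant per length in 5 of 5 males and OAT3 transcripts in 5 of 5 females. In 4 of the 5 males the ratio was nearly constant, and in male 5, whose *Slc22a8* was low, it was higher. The share of all gene pairs whose ratio separates the sexes was not computed, so nothing is read from this separation. *Slc22a12* over *Slc22a6* overlapped between the sexes, at 0.461 to 1.08 in males and 0.619 to 1.22 in females.

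*Slc22a7* (ENSRNOG00000018420) lies on the plus strand at chr9:16924520-16931766. Males 1 to 5 had 1.22, 2.65, 1.21, 3.89 and 3.35 FPKM, and females 1 to 5 had 26.5, 13.6, 19.4, 30.5 and 44.5 FPKM. Every female lay above every male, the lowest female being 3.49 times the highest male. The means of 2.47 ± 1.22 FPKM and 26.9 ± 11.8 FPKM (SD, n = 5) gave a ratio of 10.9 and a log2 fold change of 3.43 (SE 0.39, 95% interval 2.58 to 4.29). Reads numbered 54 to 247 per male and 589 to 2186 per female, and the gene ranked 11469 among tested genes in males and 3074 in females.

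*Slc22a13* (ENSRNOG00000056476) lies on the minus strand at chr8:127885268-127900463. It was at 0.615, 0.969, 0.173, 3.08 and 2.27 FPKM in males 1 to 5 and at 23.2, 13.9, 12.1, 25.6 and 36.8 FPKM in females 1 to 5. The sexes did not overlap, with the lowest female at 3.92 times the highest male. Within males the level spread 17.8-fold, from 5 reads in male 3 to 127 reads in male 4, against 3.04-fold in females. Means were 1.42 ± 1.21 FPKM and 22.3 ± 9.95 FPKM (SD, n = 5), a ratio of 15.7 and a log2 fold change of 4.24 (SE 0.60, 95% interval 2.92 to 5.55).

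*Slc22a22* (ENSRNOG00000004958) lies on the minus strand at chr7:97040507-97071968. Males 1 to 5 had 19.97, 27.1, 18.6, 19.4 and 27.4 FPKM, the tightest spread of the 3 carriers whose ranges lay apart. The reads on it were 648, 1058, 564, 840 and 864 in males and 1, 5, 2, 1 and 2 in females 1 to 5. With 4 of 5 females at 3 reads or fewer, the female level of 0.0681 ± 0.0584 FPKM (SD, n = 5) is at the limit of detection, against 22.5 ± 4.37 FPKM in males. Pooled by sex, 3974 reads in males stood against 11 in females, which scaled for library size is a ratio of 350 (exact 95% interval 195 to 701, counting error only). The fitted log2 fold change of −7.11 (SE 0.22) depends on the pseudocount, at −4.44 with 1 FPKM and −8.41 with 0.01 FPKM. The gene ranked 3524 among tested genes in males and 17379 in females.

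*Slc22a12* (ENSRNOG00000021108) lies on the minus strand at chr1:221910785-221919301, 2881 kb from *Slc22a8*. Its levels were 133, 232, 186, 201 and 229.6 FPKM in males 1 to 5 and 150.4, 98.0, 146, 208 and 259.9 FPKM in females 1 to 5. The ranges overlapped throughout, and the lowest and the highest rat were both female. Means were 196 ± 40.3 FPKM and 172 ± 62.4 FPKM (SD, n = 5), with a log2 fold change of −0.24 (SE 0.25, 95% interval −0.78 to 0.30). The interval includes equality and also a moderately lower level in females, and without female 2 the log2 fold change was −0.05.

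**Figure D2:**
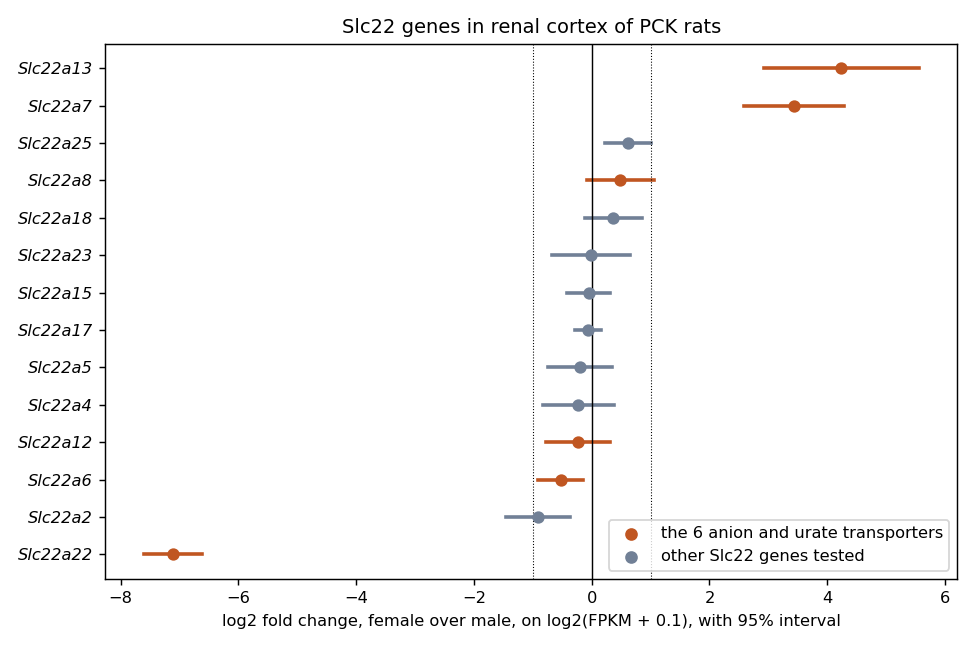
Log2 fold change of females over males on log2(FPKM + 0.1), with the 95% interval, for the 6 transporters (orange) and 8 of the 9 other Slc22 genes tested (grey), and dotted lines at a change of 1 in either direction. Slc22a13 (4.24), Slc22a7 (3.43) and Slc22a22 (−7.11) lie far from the other genes plotted, which run from −0.91 for Slc22a2 to 0.62 for Slc22a25.

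As shares of their summed FPKM, *Slc22a6* made up 38.3% of the 6 in males and 27.0% in females, and *Slc22a8* 31.8% and 44.4%. *Slc22a12* made up 26.3% and 22.2%. *Slc22a7* went from 0.337% in males to 3.45% in females and *Slc22a13* from 0.200% to 2.88%, while *Slc22a22* went from 3.04% to 0.0104%. The ranges of the shares of *Slc22a6* did not overlap, at 35.9% to 41.4% in males and 24.2% to 28.3% in females, although those of its FPKM did. No background of other genes was computed for such shares.

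**Figure D3:**
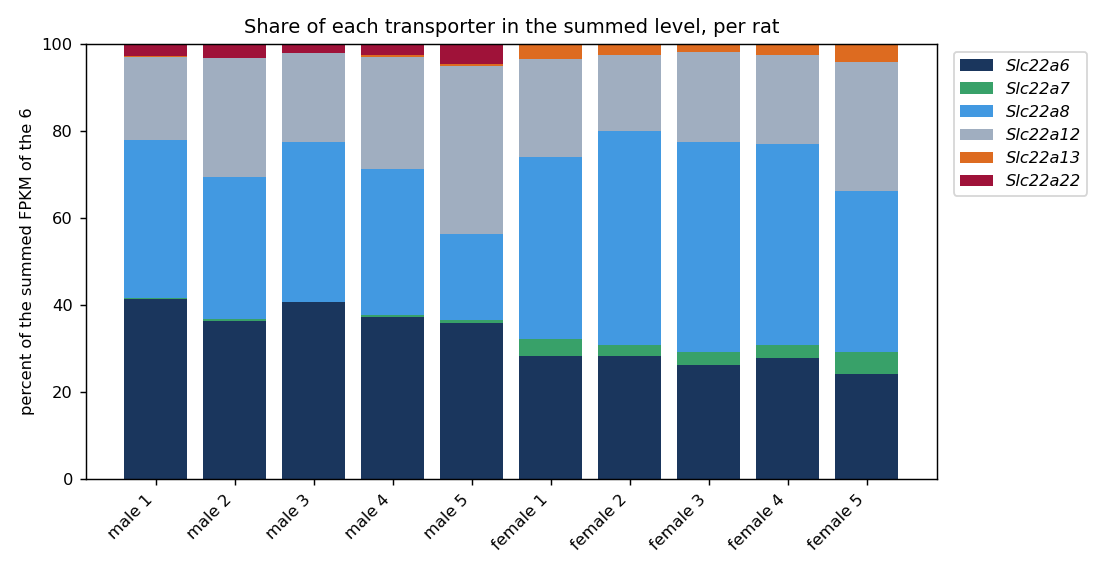
Share of each of the 6 transporters in their summed FPKM, in percent, as 1 stacked bar per rat. The top band is Slc22a22 in males (3.04% on average), and in females Slc22a13 (2.88%) stands on top and Slc22a7 (3.45%) shows between Slc22a6 and Slc22a8.

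Rats of 1 sex also differed among themselves, and some of the carriers did so together. Each level was expressed as its difference, on the log2 scale, from the mean of its sex, and Pearson's r was taken over the 10 rats as a description. The rats form 2 clusters of 5, and the genes compared come from the same libraries, so no test was made. *Slc22a6* and *Slc22a8* went together (r = 0.89), with male 3 and female 4 the highest and male 5 the lowest male in both. *Slc22a7* and *Slc22a13* went together (r = 0.89), with male 4 and female 5 the highest and male 3 the lowest male in both. *Slc22a12* went with *Slc22a7* (r = 0.83) and less with *Slc22a13* (r = 0.51). Between *Slc22a6* or *Slc22a8* and the other 3, the r over both sexes ran from −0.42 for *Slc22a8* with *Slc22a13* to 0.38 for *Slc22a6* with *Slc22a12*. *Slc22a22* had a negative r with *Slc22a6* (−0.66) and *Slc22a8* (−0.51), in which its female values rest on 1 to 5 reads. Without female 2, the r of the first 3 pairs named was 0.91, 0.92 and 0.77, that of *Slc22a12* with *Slc22a13* was 0.50, and that of *Slc22a6* with *Slc22a12* was 0.12.

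The levels were also set beside markers of segments of the proximal tubule, a comparison added after the data were seen. The first segment (S1) list holds 5 genes, among them *Gatm*, the first enzyme of creatine synthesis, and the third segment (S3) list holds 6, among them *Slc7a13*, an apical amino acid carrier. Few genes carried each sum, since *Gatm* made up 72.5% of the S1 sum in males and 76.1% in females, and *Slc3a1*, the partner subunit of amino acid carriers, and *Slc7a13* made up 64.4% and 29.4% of the S3 sum in males and 51.8% and 42.1% in females. *Cyp7b1* of the S3 list, a hydroxylase at 3.41 ± 0.584 FPKM in males against 2.80 ± 0.908 FPKM in females, ran against its sum in female 2, where it was the highest of the females. Summed S1 markers were at 1148, 1449, 1512, 1197 and 579.8 FPKM in males 1 to 5 and at 1273, 1096, 1756, 2109 and 1720 FPKM in females 1 to 5. Male 5 was the lowest rat in this sum, as it was in *Slc22a8*. Summed S3 markers were at 790.2, 1287, 829.7, 1635 and 1591 FPKM in males 1 to 5 and at 1811, 1096, 1060.0, 2086 and 2205 FPKM in females 1 to 5. Males 1 and 3 were low and males 4 and 5 high, the same division as in *Slc22a7*. Of the list, *Slc3a1*, *Slc7a13* and *Slc5a10* divided the males alike. In *Slc2a1* males 4 and 5 were high, but male 2 was the lowest. *Slc5a1* did not divide them so, at 10.5, 13.1, 14.2, 15.1 and 11.9 FPKM in males 1 to 5. Nor did *Cyp7b1*, which was lowest in male 4 at 3.09 FPKM.

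As differences from the mean of the sex, the S1 sum had r = 0.96 with *Slc22a8* and 0.89 with *Slc22a6* over the 10 rats, and the S3 sum had r = 0.95 with *Slc22a7*, 0.87 with *Slc22a13* and 0.79 with *Slc22a12*. These values were high in both sexes, at 0.77 or more in 5 males and 0.84 or more in 5 females. The crossed pairs of carrier and segment had opposite signs in the sexes. The S1 sum had r = −0.45 with *Slc22a7* and −0.58 with *Slc22a13* in males, against 0.61 and 0.36 in females. The S3 sum had r = −0.61 with *Slc22a6* and −0.55 with *Slc22a8* in males, against 0.74 and 0.41 in females. The division by segment was thus seen in males, while in females each of these carriers had a positive r with both sums. Nor was it particular to S1, since the sum of the whole proximal tubule list had r = 0.89 with *Slc22a6* and 0.82 with *Slc22a8*. The summed injury markers, mostly *Spp1*, had −0.80 and −0.64 (−0.93 and −0.94 in females). Neither segment sum differed between the sexes beyond the spread of the rats by an exact permutation test, two-sided (S1 p = 0.135, adjusted p = 0.306; S3 p = 0.206, adjusted p = 0.310, over 15 lists). Of their genes, limma called *Slc5a1*, a glucose carrier of the S3 list, as higher in females, and none of the S1 list. No gene of the 2 lists was at 0 in a rat.

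**Figure D4:**
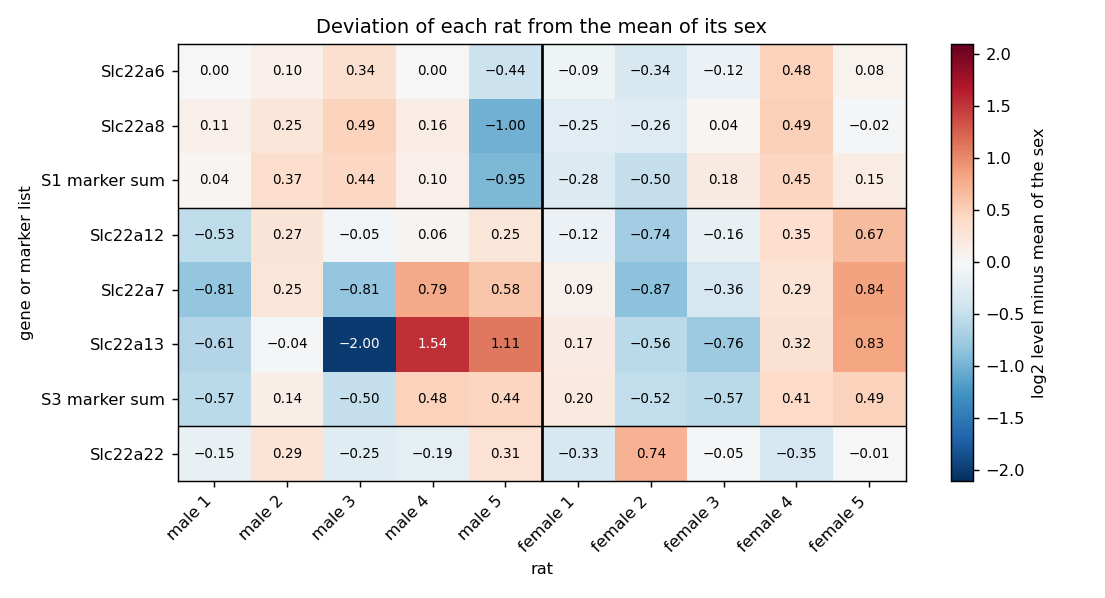
Log2 level minus the mean of the sex for the 6 transporters and for the summed S1 and S3 markers of the proximal tubule, per rat, with red above and blue below the mean. Slc22a6 and Slc22a8 share the low value of male 5 with the S1 sum, and Slc22a7 and Slc22a13 share the low values of males 1 and 3 and the high values of males 4 and 5 with the S3 sum.

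Set against the segment markers, the sex differences took different courses. Per 1000 FPKM of S1 markers, *Slc22a8* was at 193 to 221 FPKM in males against 189 to 251 FPKM in females, a ratio of means of 1.02 in place of 1.35. On the same scale *Slc22a6* was at 214 to 367 FPKM in males against 105 to 148 FPKM in females, which did not overlap, with a ratio of 0.496. Per 1000 FPKM of S3 markers, *Slc22a7* was at 1.46 to 2.38 FPKM in males against 12.4 to 20.2 FPKM in females, a ratio of 8.38. *Slc22a13* was at 0.209 to 1.89 FPKM in males against 11.4 to 16.7 FPKM in females, a ratio of 13.0. On this scale the males ran from 73.8 to 399 FPKM in *Slc22a8*, against 147 to 319.6 FPKM in the females, and its ratio of means turned to 0.933. The spread of *Slc22a7* within each sex was narrower on this scale than in FPKM, and the sexes still lay apart. For *Slc22a12* the ratio of means, 0.878 in FPKM, was 0.561 per S1 markers and 0.628 per S3 markers, with overlapping ranges on both scales. The S1 scale rests mostly on *Gatm*, itself at 853 ± 267 FPKM in males against 1211 ± 288 FPKM in females. *Slc5a2* (123 and 156 FPKM) and *Alpl* (81.8 and 110 FPKM) of that list also had higher means in females. *Slc5a12* (68.5 and 69.1 FPKM) and *Slc2a2* (50.8 and 45.4 FPKM) were near equal or lower, and no scaling to single markers was made. In the S3 sum, *Slc7a13* was at 361 and 695 FPKM and *Slc3a1* at 789 and 855 FPKM. These ratios use the same contrast and are a description.

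The whole proximal tubule list of 12 genes summed to between 6613 and 10452 FPKM in males, against 6539 to 11905 FPKM in females (exact permutation test, two-sided, p = 0.921). Its member *Cubn*, the receptor cubilin, was called higher in females, and no other gene of the list was called. Per 1000 FPKM of these markers, *Slc22a6* was at 29.7 to 36.8 FPKM in males and did not overlap the females, at 20.4 to 26.4 FPKM, and the ratios of means of the other 5 stayed near those in FPKM. Injury markers (*Havcr1*, *Lcn2*, *Vcam1*, *Spp1* and *Clu*) summed to 3892 to 7632 FPKM in males against 1110 to 6265 FPKM in females (exact permutation test, two-sided, p = 0.198, adjusted p = 0.310), highest in male 5 and lowest in female 4, the lowest and highest rats in *Slc22a8*. *Spp1* made up most of this sum, at 4867 ± 1442 FPKM in males against 3185 ± 1771 FPKM in females. All of these genes were lowest in female 4. In male 5 *Spp1*, *Lcn2* and *Vcam1* were at their highest, while *Clu* was the lowest of the males (452 FPKM) and *Havcr1* was higher in male 4. The part of the injury markers in the levels of *Slc22a6* and *Slc22a8* was not tested. None of the 15 marker lists passed an adjusted p of 0.05. The lowest, 0.0595 by the exact permutation test, were those of the intercalated cells (173 ± 25.9 FPKM in males, 265 ± 47.7 FPKM in females, n = 5) and of fibroblasts (265 ± 42.9 FPKM and 154 ± 59.1 FPKM). Before adjustment both stood at 0.00794, the smallest p that the exact permutation test can give here. Their ranges did not overlap between the sexes. Intercalated markers were at 134 to 205 FPKM in males against 215 to 337 FPKM in females. Fibroblast markers were at 231 to 313 FPKM in males against 68.9 to 227 FPKM in females. The adjusted p of these lists is thus no sign of equal levels. Of all marker genes, *Pvalb* of the distal convoluted tubule was at 0, and *Cyp11b1* of the adrenal was not matched by symbol.

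The genes that followed each carrier most closely within the sexes were read off over 10 rats, among 13363 genes whose mean reached 1 FPKM. For *Slc22a6* they included *Sgk2*, a kinase (r = 0.99), and *Slc25a13*, the mitochondrial aspartate-glutamate carrier (0.97). For *Slc22a8* they included *Etv1*, an ETS transcription factor (0.99), and *Slc15a1*, a peptide carrier (0.98). *Slc22a7* was followed by *Acss2*, an acetyl-CoA synthetase (0.98), *Cpxm2*, of the carboxypeptidase family (0.95), and *Sult4a1*, of the sulfotransferase family (0.95).

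For *Slc22a13* they were the olfactory receptor gene *Olr1668* (0.99), *LOC361914* (0.98) and *Slc7a12* (0.96). The table describes *LOC361914* as similar to the amino acid carrier *Slc7a12*, so reads may be divided between them. *Slc22a12* was followed by *Fah*, the last enzyme of tyrosine breakdown (0.98), *Saa4*, a serum amyloid (0.97), and *Tyw3*, an enzyme of transfer RNA modification (0.96). For *Slc22a22*, whose female values rest on few reads, they were *Clk1*, a kinase of splicing factors (0.98), *Fkbp7* (0.97) and *Polr3gl*, a subunit of RNA polymerase III (0.96). Nothing on function is read from these values.

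The other genes of anion and urate handling were followed through 6 lists, with 52 rows of the table tested. By limma 2 rows (3.85%) passed the adjusted p over all genes tested, against 2.40% of all genes, both lower in females, and the median log2 fold change was −0.06 against −0.01 over all genes. The unadjusted p was under 0.05 for 15.7% of all genes, and the list counts at that level stand beside it. Of the 12 other *Slc22* genes, 9 were tested and none was called, with 2 at an unadjusted p under 0.05. Among the most abundant was *Slc22a18* (109 ± 21.3 FPKM in males, 144 ± 43.9 FPKM in females). The pair under 0.05, named after its values were seen, was *Slc22a2*, the cation carrier OCT2 (140.2 ± 35.4 FPKM in males against 76.1 ± 26.6 FPKM in females, limma adjusted p = 0.0909), and *Slc22a25* (44.8 ± 7.19 FPKM and 70.2 ± 19.3 FPKM, limma adjusted p = 0.112). *Slc22a2* passed, at an adjusted p of 0.0448, without female 4 and, at 0.0382, under quantile normalization.

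None of the 8 genes of the sodium pump and of sodium-coupled carriers of dicarboxylates, monocarboxylates and sulfate was called, with 2 at an unadjusted p under 0.05 by limma. The most abundant was *Fxyd2*, the gamma subunit of the sodium pump (3413 ± 334 FPKM in males against 4491 ± 474 FPKM in females, limma adjusted p = 0.346). The 2, named after their values were seen, were the sulfate carrier *Slc13a1* (215 ± 53.4 FPKM in males, 296 ± 43.8 FPKM in females, limma adjusted p = 0.191) and the monocarboxylate carrier *Slc5a8* (13.4 ± 2.80 FPKM and 23.1 ± 8.16 FPKM, limma adjusted p = 0.175). Among 8 other apical anion and urate carriers none was called by limma and 1 had an unadjusted p under 0.05, *Slc16a9* (44.9 ± 11.7 FPKM in males, 31.5 ± 8.83 FPKM in females, limma adjusted p = 0.266), likewise named afterwards. *Slc17a3* was at 95.1 ± 19.9 FPKM in males against 119 ± 24.9 FPKM in females, and *Slc17a1* at 51.5 ± 10.2 FPKM and 62.8 ± 8.995 FPKM, both phosphate and anion carriers of the brush border. The 4 scaffold genes gave no call and no unadjusted p under 0.05, with *Slc9a3r1*, which encodes the PDZ protein NHERF1, at 357 ± 40.7 FPKM in males against 413 ± 69.6 FPKM in females, and *Pdzk1ip1*, which encodes a small partner of PDZK1, at 343 ± 46.7 FPKM and 325 ± 29.9 FPKM.

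Of the enzymes of purine breakdown and salvage, 7 rows were tested and none was called by limma, with 2 at an unadjusted p under 0.05. *Xdh*, the xanthine dehydrogenase that makes urate, was at 26.8 ± 2.43 FPKM in males against 20.8 ± 2.57 FPKM in females, with ranges that did not overlap and a limma adjusted p of 0.0922, and it passed under quantile normalization (limma adjusted p = 0.0463). The other was *Gda*, guanine deaminase, at 21.5 ± 3.02 FPKM and 16.04 ± 5.09 FPKM (limma adjusted p = 0.282). *Pnp*, the purine nucleoside phosphorylase, was at 142 ± 19.6 FPKM and 125 ± 11.1 FPKM.

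The 2 calls came from 16 transcription factors and hormone receptors. *Prlr*, the prolactin receptor, was at 12.8, 16.5, 12.2, 35.8 and 20.8 FPKM in males 1 to 5 and at 5.94, 3.18, 3.73, 5.67 and 4.44 FPKM in females 1 to 5. The ranges did not overlap, and the log2 fold change was −1.99 (SE 0.29, limma adjusted p = 0.00369). *Esr1*, the estrogen receptor alpha, was at 4.75, 5.58, 5.29, 6.88 and 5.03 FPKM in males 1 to 5 and at 2.27, 1.66, 1.95, 3.72 and 2.43 FPKM in females 1 to 5. Every female lay below every male, with a log2 fold change of −1.20 (SE 0.20, limma adjusted p = 0.00793). The calls of *Prlr* and *Esr1* held in 19 of 19 alternative settings, of which median-ratio scaling could move nothing. The liver and kidney factor *Hnf4a* was at 143 ± 13.2 FPKM in males against 141 ± 31.4 FPKM in females, and was not called by limma.

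**Figure D5:**
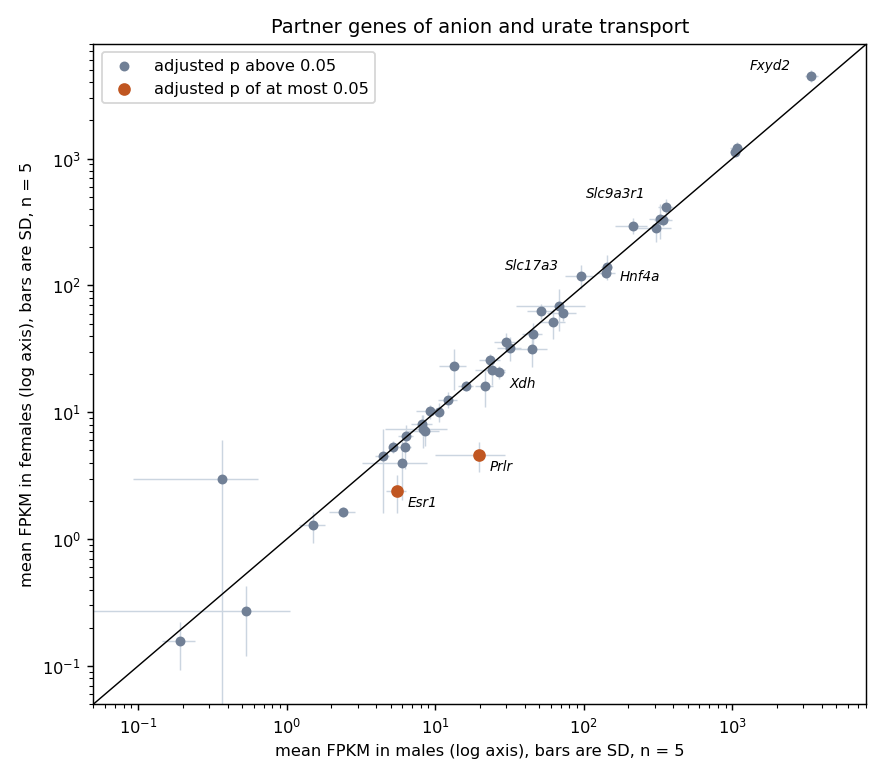
Mean FPKM of partner genes in females against males on log axes, with the SD over 5 rats as bars and the line of equality, for the 43 rows tested that are not Slc22 genes. Prlr and Esr1 (orange) lie below the line, and the grey point high above it at the lower left is 1 of the 2 rows of Hprt1 and rests on female 2 (14.3 FPKM).

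Within 100 kb of the 6 genes lie 26 other genes, of which 20 were tested, and 1 was called by limma, beside 2.40% of all genes. That gene, *LOC685081* (chr8:127909147-127912860), lies 8684 bases from *Slc22a13* and is described in the table as similar to it, so reads of one may be assigned to the other. It was at 0.124 ± 0.0767 FPKM in males, from 1 to 6 reads, and 0.633 ± 0.407 FPKM in females, from 8 to 33 reads (SD, n = 5). Its log2 fold change was 1.63 (SE 0.37, limma adjusted p = 0.0471), and the call was lost in 11 of 18 alternatives, with adjusted p up to 0.115. *Slc22a14*, the other family member beside *Slc22a13*, had at most 1 read in a rat. No gene lies within 100 kb of *Slc22a22*, and *Crip3*, 96 bases from *Slc22a7* on the other strand, was not called (limma adjusted p = 0.409).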

How the data were processed

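RNA-seq of renal cortex from PCK rats, 5 of each sex, was grouped by the sex in the sample labels. Per the submitters' processing notes, fastp, HISAT2 2.0.5, StringTie 1.3.3b and featureCounts 1.5.0-p3 were used, and the build was Rnor_6.0. The deposited table holds FPKM computed by the authors, and whether counting used strand is not given in the sources used here. All of the per-sample columns were used.

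Each FPKM was divided by the worth of 1 read at the deposited gene length, which gave whole reads (tolerance 0.01) for 100% of values. The chi-square per degree of freedom was 10.2 for the closest pair of libraries, and all counted as separate samples.

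Because the values are FPKM, limma 3.58.1 (R 4.3.3, lmFit and eBayes with trend) was fitted to log2(FPKM + 0.1) over genes whose mean reached 0.1 FPKM, with Benjamini-Hochberg adjustment over 17631 genes, in place of the count test of the study. The procedure was tested on simulated data. Summed marker lists had an exact permutation test, two-sided, adjusted over 15 lists, for which 0.00794 is the smallest p. Other steps were run in Python 3.11.15 (scipy 1.17.1, pandas 2.3.3 and numpy 2.4.6). The limit of detection was 3 reads, which like the read intervals covers counting error only.

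The 6 genes and all lists were chosen with earlier results of these data known. Genes named are the 6, called genes and the 2 most abundant of each partner list, called neighbours within 100 kb, and the 3 genes with the highest within-sex r. Other names were added after values were seen, and a few genes and motifs under this rule are not reported here. Alternatives were pseudocounts of 1 and 0.01, other filters, median-ratio and quantile scaling, eBayes without trend, the replicate block, limma-voom on recovered reads, the adjusted p alone and leaving out each rat. Levels relative to marker sums were added after the data were seen. Sequences are from RefSeq (GRCr8). Cyst fluid, plasma and urine were not analysed here.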

Additional observations from a re-analysis of the deposited data

Results flagged for a closer look

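In females, *Slc22a22* was at 0.169 FPKM in female 2, and its gap to the nearest of the other 4, as a share of the range of the 5, exceeded the 95% limit of Dixon's criterion. The value rests on 5 reads, against 1 or 2 reads in each of the others, and female 2 also had the highest mitochondrial share (26.8%). Summed markers of the thick ascending limb (*Umod*, *Slc12a1*, *Cldn16*, *Cldn10* and *Egf*) reached 1633 FPKM in male 5, apart by the same criterion from 1115 to 1169 FPKM in the other males. Male 5 was also the lowest rat in *Slc22a8* and in the S1 marker sum. Chance alone flags about 1 in 20 groups.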

How the results depend on the processing

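The fitted log2 fold changes of the 6 carriers kept their sign in every alternative run, while the ratio of means of *Slc22a8* turned from 1.35 to 0.933 per FPKM of S3 markers. The fitted log2 fold change of *Slc22a22* moved to −4.44 with a pseudocount of 1, −8.41 with 0.01 and −8.33 with limma-voom. Relative to summed S1 markers, log2 fold changes became −0.996 for *Slc22a6*, 0.0161 for *Slc22a8*, −0.71 for *Slc22a12* and −7.58 for *Slc22a22*, and relative to S3 markers −0.95 for *Slc22a6*, 0.0577 for *Slc22a8*, −0.67 for *Slc22a12* and −7.54 for *Slc22a22*. Median-ratio factors did not differ between libraries, so that alternative could move nothing. Over all genes, 223 were higher and 201 lower by the adjusted p alone, and 65 and 72 with a pseudocount of 1. The called neighbours fell from 1 to 0 with a pseudocount of 1, without a filter, with a filter at 1 FPKM and with the replicate block. Quantile normalization gave 1 call each among the other *Slc22* genes and the purine enzymes. The difference in summed proximal tubule markers, 124.6 FPKM, became −0.0271 as a mean of log2 values, and that of adrenal markers −0.118.

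With each rat left out in turn, log2 fold changes ranged from −0.65 to −0.44 for *Slc22a6*, 3.22 to 3.65 for *Slc22a7*, 0.23 to 0.61 for *Slc22a8*, −0.41 to −0.05 for *Slc22a12*, 3.74 to 4.62 for *Slc22a13* and −7.29 to −7.02 for *Slc22a22*. Genes called higher ranged from 82 to 114 and lower from 89 to 148, called neighbours and other *Slc22* genes from 0 to 1. The marker differences ranged from −614 to 728 FPKM for the proximal tubule (−97.1 without male 1, −429 without male 5, −614 without female 4, −172 without female 5). For endothelium they ranged from −0.0393 FPKM (without female 2) to 11.8 FPKM, and for adrenal from −0.0225 FPKM (without female 2; −0.00188 FPKM without female 3) to 0.110 FPKM.

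Replicate numbers did not pair the rats, since same-numbered deviations had r of −0.10 to 0.07. With the replicate block, 0 neighbours were called, and the cause was not tested. Depth limits *Slc22a22* in females and *Slc22a13* in male 3.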
